A study of Mus musculus with 3 samples.

Results

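Rab GTPases are the subject here, described in mouse macrophages that met Lipid A a second time. Members were all gene rows whose symbol is Rab followed by a number and at most a letter and a digit, and which have a protein-coding transcript. This gave 59 genes of 22028 protein-coding genes, among 55536 annotated genes and 81881 rows in each deposited gene table. The cells were primary bone-marrow-derived macrophages of strain C57BL/6J. They had 100 ng/ml Lipid A, the lipid anchor of bacterial lipopolysaccharide, for 12 h, a washout of 12 h, and 100 ng/ml Lipid A for a further 120 min. Total RNA of the cytosolic fraction was sequenced after ribosomal RNA depletion, and sex and age of the animals are not recorded in the labels. There was 1 group of 3 biological replicates and no untreated, singly treated or nuclear sample was analysed here, so no change with Lipid A can be stated. The labels give 1 donor entry for all 3 replicates and do not say that they were separate animals or cultures, so the spread between them may be technical.

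Rab proteins are small GTPases that switch between an active GTP-bound and an inactive GDP-bound form. Each sits on particular membranes and recruits effectors that bud, move, tether or fuse vesicles there. Exchange factors (GEFs) switch them on, GTPase-activating proteins (GAPs) of the TBC family switch them off, and a geranylgeranyl lipid on cysteines at the end of the protein holds them in the membrane. In macrophages, a phagosome exchanges early endosomal Rabs such as Rab5 for the late endosomal Rab7 on its way to fusion with lysosomes. The libraries measure RNA and not the amount, location or nucleotide state of these proteins.

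The coding ends of the members that the levels below turn on hold the cysteine codons to which that lipid attaches. Each line is the last 45 coding bases before the stop codon in the longest complete coding sequence of the member in GENCODE M21 (mm10), 5′ to 3′, with cysteine codons among the last 5 codons in capitals.
Rab5a: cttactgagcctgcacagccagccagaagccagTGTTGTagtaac
Rab5b: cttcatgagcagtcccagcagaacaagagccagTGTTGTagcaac
Rab5c: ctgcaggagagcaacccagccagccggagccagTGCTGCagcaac
Rab7: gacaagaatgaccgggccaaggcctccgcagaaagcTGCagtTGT
Rab7b: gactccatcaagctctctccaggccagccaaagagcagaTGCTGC
Rab8a: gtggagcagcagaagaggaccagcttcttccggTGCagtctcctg
Rab8b: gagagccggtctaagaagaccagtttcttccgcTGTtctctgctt
Rab11a: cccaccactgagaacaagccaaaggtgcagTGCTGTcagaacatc
Rab11b: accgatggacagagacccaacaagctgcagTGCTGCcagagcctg
Rab20: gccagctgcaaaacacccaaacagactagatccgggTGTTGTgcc
Rab32: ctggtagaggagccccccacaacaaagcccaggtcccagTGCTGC

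All 59 members had a complete coding sequence, and all 59 had a cysteine codon among the last 5 codons. In 50 members there were at least 2 such codons, and in 9 there was 1. The members with 1 included both forms of Rab8, as their lines show, and 6 of the 9 were among the 34 members present in every library. Over their whole coding sequences, ends included, the paralogues differed. The ends were not compared with the rest. The coding sequences of Rab8a and Rab8b were identical at 77.4% of aligned positions, those of Rab11a and Rab11b at 75.2%, those of Rab5a and Rab5b at 74.3%, and those of Rab7 and Rab7b at 60.6%. No member shared over 1% of the 50-base windows of its protein-coding transcripts with another member. Sharing with other genes was larger for 4 of the 29 members with a mean of at least 5 TPM. It came to 80.3% of windows for Rab4b and 77.0% for Rab43, both with annotated genes that run through them, and to 13.0% for Rab5b and 11.2% for Rab7, mostly or wholly with processed pseudogenes. Reads in those windows can be split between the rows. The 4 other genes stood low, with Gm21983 (over Rab4b) listed at 0 in every library, Gm45140 (over Rab43) at 0.837 TPM, Gm13991 at 0.32 TPM and Rab7-ps1 at 1.18 TPM.

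Levels are given as TPM, the length-normalised transcript level of the deposited gene table, as mean ± SD (n = 3) or for replicates 1, 2 and 3 in that order. The libraries held 29376859, 64822118 and 37665844 expected counts. Protein-coding genes took 32.5%, 26.5% and 27.1% of the TPM, so that an even gene stood higher in replicate 1 on this scale. All 10 macrophage markers were above 10 TPM, from Lyz2 at 2751 ± 2.59 to Mertk at 25.7 ± 6.51. The summed levels of the marker lists of 10 other cell types lay between 0 and 8.08 TPM in every library. The highest of each were Kdr (endothelial) at 4.21, S100a8 (neutrophil) at 2.08, Pdgfrb (fibroblast) at 0.17, Zbtb46 (dendritic) at 0.147, Cd3e (T cell) at 0.0233, Cd79a (B cell) at 0.02, Cpa3 (mast cell) at 0.0133, Hbb-bs (erythroid) at 0.00667 and Cdh1 (epithelial) at 0.00333 TPM, while all 3 neuronal markers were listed at 0. In bulk RNA, fewer cells with a transcript and less of it per cell cannot be told apart.

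Most of the Rab family was present. In every library, 34 of 59 members (57.6%) reached 1 TPM, against 39.1% of all protein-coding genes, and 26 reached 10 TPM, against 15.3%. A further 22 members stayed under 1 TPM in all 3 libraries, and 14 had a mean under 0.1 TPM. The median member stood at 4.07 ± 0.96 TPM, and the median protein-coding gene at 0.12 ± 0.01 TPM. Together the members summed to 1349, 1044 and 1076 TPM, which was 0.402% ± 0.0115 of the protein-coding TPM. The 5 highest members held 41.1% ± 1.26 of that sum and the 10 highest 64.3% ± 0.129. These counts and shares describe the family and were not tested.

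**Figure D1:**
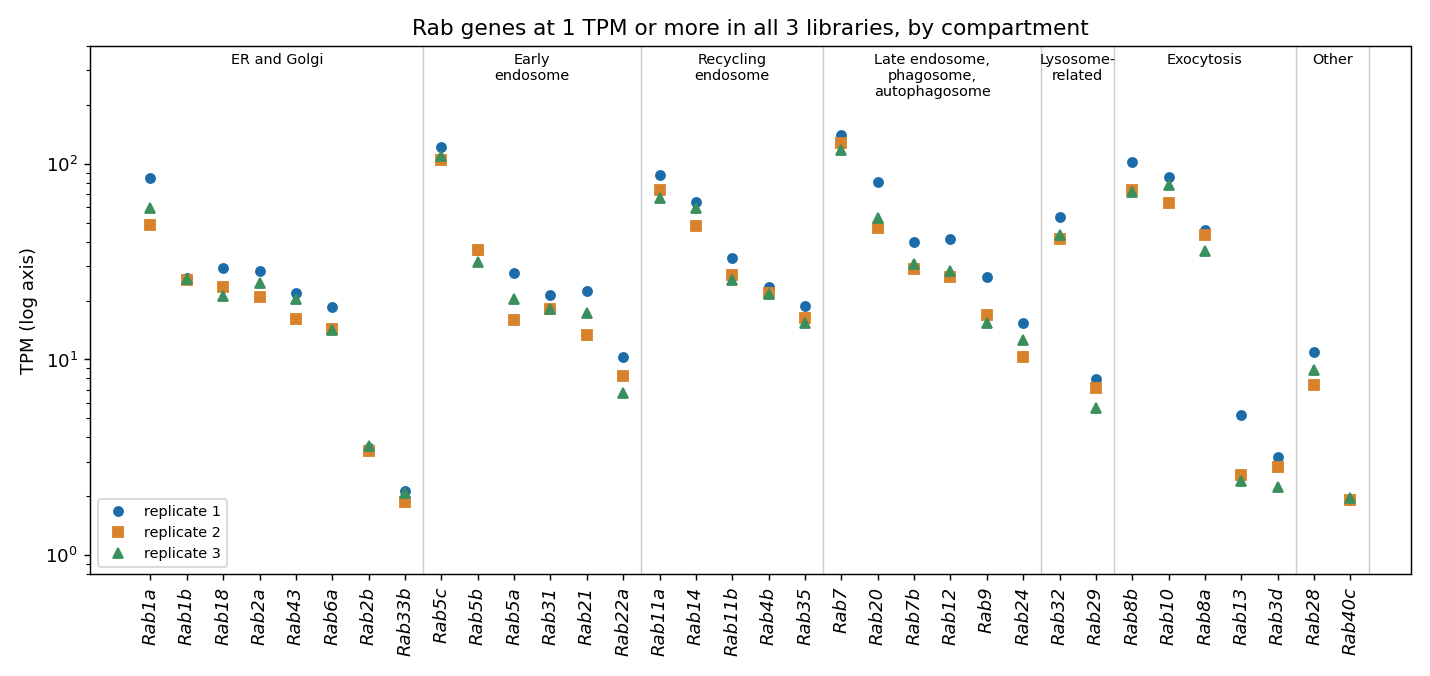
TPM (log axis) of the 34 Rab genes that reached 1 TPM in all 3 libraries, 1 point per replicate, ordered by compartment and by mean. Rab7 and Rab5c were above 100 TPM in every library, and the early endosomal genes span 6.73 to 122 TPM.

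The early endosome was the only one of 7 compartment groups in which every member reached 1 TPM. The groups came from general knowledge of where each Rab acts, and many Rabs act at more than 1 site. Rab5c, which directs fusion of early endosomes (chromosome 11, 100715009 to 100738215, minus strand), stood at 122.1, 104.9 and 109.3 TPM. Its paralogue Rab5b stood at 36.2, 36.2 and 31.5 TPM, and Rab5a at 27.6, 15.9 and 20.4 TPM. Rab5c thus lay above both paralogues in every library, and Rab5b above Rab5a in every library. Rab31, which acts between the trans-Golgi and early endosomes, stood at 19.2 ± 1.82 TPM, Rab21, which also serves integrin traffic, at 17.7 ± 4.59, and Rab22a at 8.43 ± 1.81. Rab5a, Rab31 and Rab21 did not keep 1 order across the libraries.

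Late endosomal, phagosomal and autophagosomal Rabs had the highest summed level. Rab7, the defining Rab of late endosomes and of fusion with lysosomes (chromosome 6, 87999106 to 88045270, minus strand), was the highest member of the family at 139.8, 127.4 and 117.8 TPM. It lay above Rab5c in each library, although the ranges of both genes over the libraries overlapped. On CPM (counts not divided by transcript length) Rab8b was above Rab7 in every library, at 738, 639 and 568 against 420, 458 and 387. Rab10, at 451, 401 and 450 CPM, was above Rab7 in replicates 1 and 3. Rab20, which acts in phagosome maturation (chromosome 8, 11453518 to 11478710, minus strand), stood at 81.0, 47.0 and 53.1 TPM, with replicate 1 above the other two. Rab7b, which acts between late endosomes and the trans-Golgi, stood at 39.8, 28.9 and 30.8 TPM. Rab12, which sends recycling cargo to lysosomes, stood at 31.9 ± 8.07 TPM, Rab9, which returns cargo to the trans-Golgi, at 19.6 ± 5.96, and Rab24, a Rab of autophagosomes, at 12.7 ± 2.54. The other 4 genes of the group were low, with Rab34 at 1.20 ± 0.46, Rab39 at 0.28 ± 0.15, Rab36 at 0.13 ± 0.07 and Rab9b listed at 0 in every library. Rab24 overlaps Prelid1 on the other strand over 1447 bases. Prelid1 stood at 57.3 TPM, and whether counting used strand is not given in the sources used here.

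Recycling Rabs were led by Rab11a, the defining Rab of recycling endosomes, at 87.8, 73.6 and 66.9 TPM. Rab14, which acts between endosomes and the Golgi and on phagosomes, followed at 63.7, 48.2 and 59.3 TPM, below Rab11a in every library on this scale. On CPM (counts not divided by transcript length) Rab14 was instead the higher at 278, 253 and 286, against 97.7, 74.9 and 78.0 for Rab11a, whose TPM rests largely on short transcripts. Rab11b stood at 28.4 ± 3.93 TPM, Rab4b, a Rab of fast recycling, at 22.3 ± 1.00, and Rab35, which returns cargo to the plasma membrane, at 16.8 ± 1.77. Rab4a stood at only 0.397 ± 0.080 TPM. Its row lies wholly within that of Gm20388, an annotated gene on the same strand at 5.41, 10.4 and 7.77 TPM, but none (0%) of the 50-base windows of its protein-coding transcripts occurs in another gene. The epithelial recycling Rabs Rab17 and Rab25 each had 0.03 TPM or less in every library.

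Exocytic Rabs split into 3 high and 7 low members. Rab8b stood at 102.4, 73.6 and 71.4 TPM, Rab10, which directs exocytosis of membrane proteins, at 85.6, 63.2 and 77.5 TPM, and Rab8a, which carries cargo from the trans-Golgi to the plasma membrane, at 45.9, 43.1 and 35.9 TPM. Rab8b and Rab10 changed order between libraries, whereas Rab8a was lowest of the 3 in each. Rab13, a Rab of traffic to cell junctions, stood at 5.18, 2.56 and 2.38 TPM. The Rab3 group of regulated secretion was at 2.74 ± 0.47 TPM for Rab3d and at 0.337 ± 0.072 for Rab3a, and Rab3c was listed at 0. Rab37, a granule Rab at 0.243 ± 0.090 TPM, overlaps Cd300lf on the other strand, and Cd300lf stood at 25.8 TPM.

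ER and Golgi Rabs were the largest group by number, with 8 of 13 members at 1 TPM. Rab1a, which drives transport from the endoplasmic reticulum to the Golgi, led at 84.5, 48.9 and 59.1 TPM, while its paralogue Rab1b stood at 26.2, 25.5 and 25.7 TPM. Rab1b was level only on this scale, since on CPM it stood at 70.6, 82.8 and 75.7. Rab18, of the endoplasmic reticulum and lipid droplets, stood at 24.7 ± 4.22 TPM, Rab2a at 24.6 ± 3.63, the Golgi Rabs Rab43 and Rab6a at 19.5 ± 2.98 and 15.7 ± 2.55, Rab2b at 3.53 ± 0.10 and Rab33b at 2.04 ± 0.14. Rab18 and Rab2a differed by less than their spread. The neuron-enriched Rab6b stood at 0.103 ± 0.015 TPM. Rab19 fell on both sides of the limit at 2.32, 1.12 and 0.82 TPM.

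Among Rabs of lysosome-related organelles, Rab32 alone reached 10 TPM, at 53.2, 41.0 and 43.4 TPM. Rab32 acts in such organelles and in defence against intracellular bacteria (chromosome 10, 10545002 to 10558265, minus strand), and it made up 83.9% ± 1.17 of the group's TPM. Rab29, a partner of the kinase LRRK2, stood at 6.93 ± 1.15 TPM, Rab38, the partner of Rab32 in melanosomes, at 1.04 ± 0.23, Rab27a, which docks secretory lysosomes, at 0.773 ± 0.081 and Rab27b at 0.00667 ± 0.0115. In the group of Rabs with no settled place in these routes, Rab28, known from cilia, stood at 9.07 ± 1.75 and Rab40c, which has a SOCS box, at 1.93 ± 0.02 TPM. Rab23, Rab40b, Rab42 and Rab44 stayed under 1 TPM in every library.

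Compared as shares of the summed Rab TPM, the late endosomal group held 25.6%, 24.7% and 24.1%, more than any other group in each library. Early endosomal Rabs held 18.5% ± 0.62, exocytic Rabs 17.8% ± 0.17, recycling Rabs 17.4% ± 0.57 and ER and Golgi Rabs 15.7% ± 0.64. Lysosome-related Rabs held 4.73% ± 0.05 and the remaining 6 Rabs 1.01% ± 0.06. The early endosomal share lay above the recycling share in each library, while the exocytic share changed place among them. The ranges of the early endosomal, recycling and exocytic shares over the libraries overlapped. The median member was highest in the early endosomal group at 20.4 ± 4.15 TPM. In the exocytic group, with 3 high genes among 10, it was 1.5 ± 0.21 TPM. On a scale of reads not divided by length (CPM, the count of a gene relative to the library total scaled by TMM), the exocytic share was instead the largest at 27.5% and the late endosomal share was 19.0%. The leading transcripts of the exocytic Rab8b, Rab10 and Rab8a are 4733, 3513 and 542 bases long. Those of the late endosomal Rab7, Rab20, Rab7b, Rab12, Rab9 and Rab24 are 2159, 1392, 1672, 2010, 1447 and 1168. Rab7b also had 47.8% of its TPM in a form of 4498 bases. The part of transcript length in the order of groups was not tested. The order of groups was described over 1 set of genes and was not tested.

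**Figure D2:**
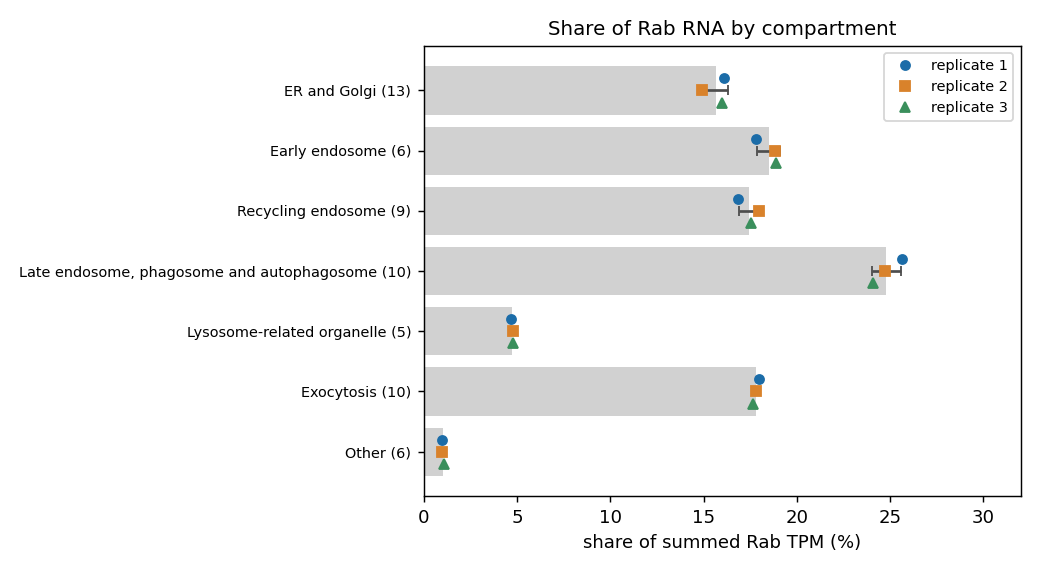
Share of the summed Rab TPM in percent for each of 7 compartment groups, with the number of genes in brackets. Bars are means of 3 libraries, error bars SD, and points single libraries. The late endosomal bar lies above the others, and the bars of early endosomal, recycling and exocytic Rabs lie between 17.4% and 18.5%.

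Paralogues of 1 Rab number were seldom at equal levels. Of 14 such groups, which hold 31 members, 12 had a summed mean of at least 1 TPM, and in 7 of these the highest paralogue took over 80%. Rab9 took all of its group, Rab40c 99.8%, Rab6a 99.3%, Rab4b 98.2%, Rab33b 96.2%, Rab3d 88.0% and Rab2a 87.3%. The Rab4b share was 73.2% with the row of Gm20388 added to Rab4a, an alternative added after seeing the data, although the transcripts of Rab4a share no window with that row. Shares were more even between Rab7 and Rab7b, where Rab7 took 79.5% ± 1.83, Rab11a and Rab11b (72.8% ± 0.41 for Rab11a), Rab1a and Rab1b (70.6% ± 5.35 for Rab1a) and the 3 Rab5 genes, in which Rab5c took 66.8% ± 1.09. On CPM Rab11a stood at 97.7, 74.9 and 78.0 and Rab11b at 88.1, 94.0 and 76.8. Rab11b was thus the higher in replicate 2 on that scale. The Rab1a share was 76.3% in replicate 1 and 65.7% and 69.7% in replicates 2 and 3. Rab8b took 66.2% ± 3.02 of the Rab8 TPM, which differed from the Rab5c share by less than the SD.

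The Rab8 share depended on a short transcript. Of the TPM of Rab8a (chromosome 8, 72161200 to 72183904, plus strand), 58.9% ± 2.96 was assigned to Rab8a-202, a retained-intron transcript of 542 bases, and 40.9% ± 2.93 to the coding Rab8a-201 of 4550 bases. The coding transcript stood at 19.5, 16.2 and 15.3 TPM and the retained-intron one at 26.4, 26.9 and 20.4 TPM. Over protein-coding transcripts alone, added after seeing the data, Rab8b took 82.8% ± 1.09 of the Rab8 TPM. The second deposited quantification gave 82.8% for the same quantity and 67.7% ± 2.20 for the retained-intron transcript. The coding ends printed above belong to the coding forms.

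**Figure D3:**
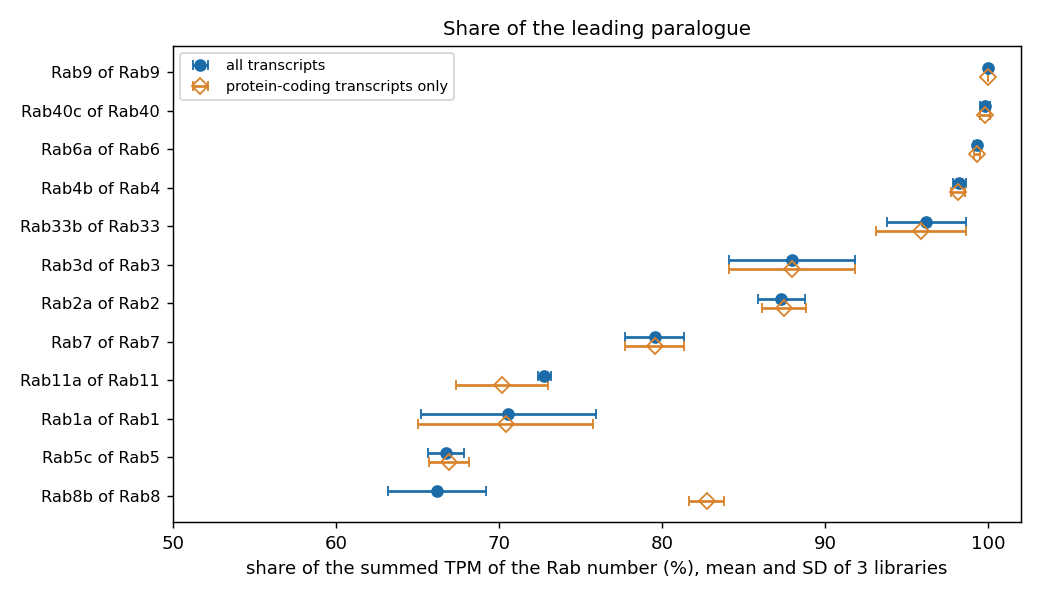
Share of the leading paralogue in the summed TPM of its Rab number, in percent from 50, as mean and SD of 3 libraries, over all transcripts (filled circles) and over protein-coding transcripts only (open diamonds). Rab8b moves from 66.2% to 82.8%, and Rab11a from 72.8% to 70.2%. The protein-coding transcripts of Rab11a include short forms that cannot hold its complete coding sequence.

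For most other members a coding transcript accounted for the level. Of 29 members with a mean of at least 5 TPM, the leading transcript held over 50% of the gene's TPM in 26 and over 90% in 17. It was annotated as protein-coding in all but Rab8a, and it was the same transcript in both quantifications for 29 of 29. The median share of transcripts that are not protein-coding was 0.83%, and only Rab8a (59.1%) and Rab11a (24.1%) passed 20%. Rab11a was spread over several short annotated forms. Rab11a-201 of 595 bases, annotated as protein-coding, held 31.5% ± 5.39. The processed transcript Rab11a-203 of 397 bases held 19.3% ± 10.4 and Rab11a-208 of 2336 bases 17.3% ± 4.01. The complete coding sequence, in Rab11a-208, has 651 bases with its stop codon, so Rab11a-201 is too short to hold it. The same goes for Rab11a-205, Rab11a-206 and Rab11a-207 (500, 462 and 508 bases), also annotated as protein-coding. The 24.1% above does not include these short forms, whereas the Rab11a share of 70.2% over protein-coding transcripts does. The share of Rab11a-203 was 7.87%, 28.2% and 21.9%, so it was not stable between libraries. Rab7-205 held 94.8% ± 0.97 of Rab7 in the first quantification but 58.4% ± 13.2 in the second, which put 21.8% in Rab7-201 and 14.1% in Rab7-206. Rab7b was divided almost evenly in the first quantification, with 48.3% ± 0.40 in Rab7b-201 and 47.8% ± 0.82 in Rab7b-202.

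**Figure D4:**
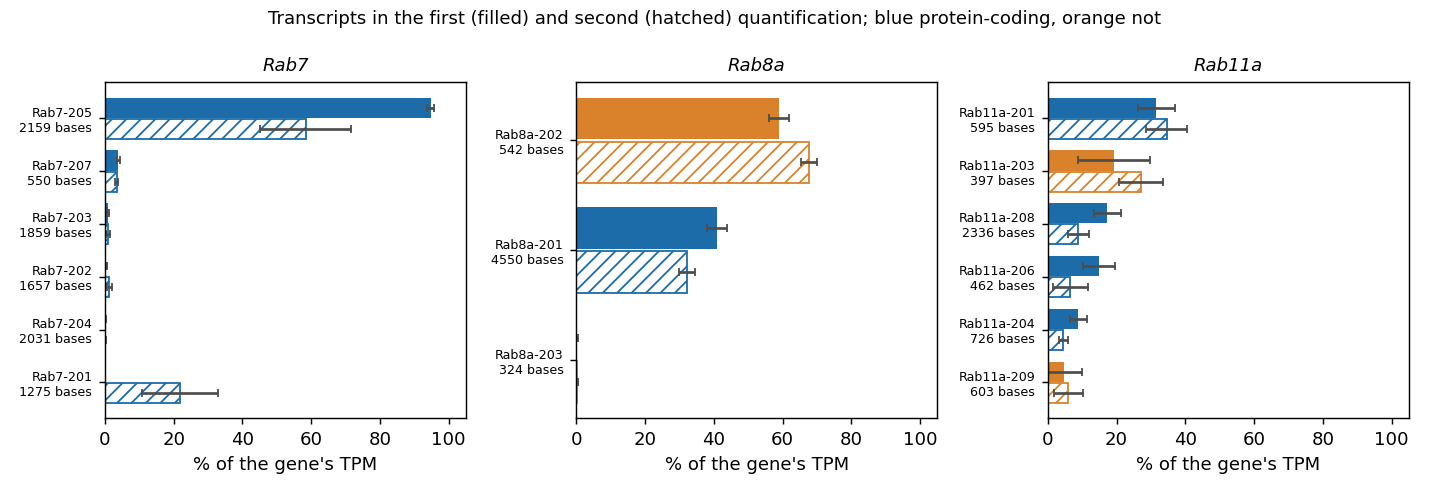
Share of the gene's TPM taken by up to 6 transcripts of Rab7, Rab8a and Rab11a, mean and SD of 3 libraries, in the first (filled) and second (hatched) deposited quantification, with protein-coding forms in blue and others in orange. Rab8a-202 leads in both at 58.9% and 67.7%, and Rab7-205 falls from 94.8% to 58.4%.

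Gene totals differed less than transcript shares between the quantifications. With each taken relative to its summed level of protein-coding and lncRNA genes (rescaled TPM), the ratio of the second to the first had a median of 0.959 over the 29 members, and 27 lay between 0.860 and 1.24. The largest ratios were 1.34 for Rab22a, 1.29 for Rab11a and 1.24 for Rab7. The smallest were 0.860 for Rab24, 0.910 for Rab8b and 0.928 for Rab1b.

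Whether members varied between libraries beyond counting error was tested with a chi-square test of the rounded expected counts against TMM-scaled library sizes, over all 14568 genes with at least 10 counts in a library, with Benjamini-Hochberg adjustment. Of 48 members tested, 36 differed, 12 did not pass, and 11 had too few counts. That is 75.0%, beside 72.0% of all genes, and the 29 members with a mean of at least 5 TPM all passed, beside 88.2% of protein-coding genes of that level. Over all members tested the share was thus near the background, while at a mean of at least 5 TPM it lay above that of genes of that level. The difference in shares was not tested. At these depths small departures pass. Rab5c passed with an adjusted p of 1.02e-05 by this test at 331, 343 and 325 CPM, a coefficient of variation of 2.72%.

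Among those 29 members the median coefficient of variation on CPM was 10.2%, beside 10.6% for 5626 protein-coding genes. Rab9 varied most, at 51.7, 40.1 and 33.0 CPM (22.6%). Rab20 came next at 151.6, 106.4 and 109.5 CPM (20.6%), followed by Rab1a at 327, 232 and 254 CPM (18.5%). Replicate 1 was highest in all 3 genes. Rab5a (18.5%), Rab12 (17.97%), Rab22a (17.3%) and Rab21 (17.0%) were also highest in replicate 1, and Rab29 (16.2%) in replicate 2. After Rab5c, the most even were Rab31 (4.53%), Rab32 (5.25%) and Rab2a (5.52%). On CPM, 17 of the 29 were highest in replicate 1, 10 in replicate 2 and 2 in replicate 3. Of protein-coding genes of that level, 39.2%, 46.4% and 14.4% were highest in replicates 1, 2 and 3. On deposited TPM 28 of the members were highest in replicate 1, and on rescaled TPM 15 were. The share of all protein-coding genes on these scales is not given here, so these counts have no background beside them. The part of the shifted TPM scale and of the lower depth of replicate 1 in this was not tested.

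**Figure D5:**
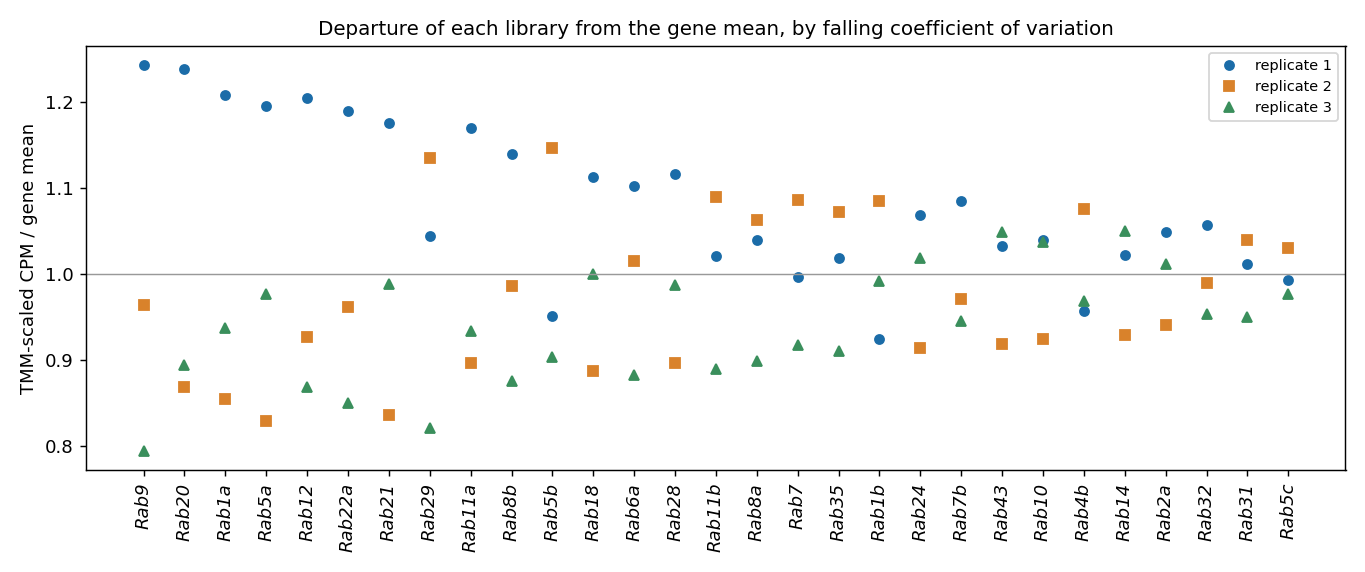
TMM-scaled CPM of each library divided by the mean of the gene, for the 29 Rab genes with a mean of at least 5 TPM, ordered by falling coefficient of variation. Replicate 1 (circles) is the highest point for Rab9, Rab20, Rab1a and Rab5a on the left, and the points of Rab5c on the right lie close to 1.

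Promoters were searched for an E-box, a site for basic helix-loop-helix factors. The 250 bases before the RefSeq start (GRCm38.p6) were searched on both strands in 48 members that matched by symbol. CACGTG was found in 5 of these 48 (10.4%), of which 3 were present in every library, and in 6.86% of all genes of the table. The other 2, Rab23 and Rab27a, were under 1 TPM. The 3 present ones were Rab5a, Rab20 and Rab21, each also among the 8 most variable members above, which was seen only after the values were known and was not tested. They are shown with 10 bases on each side and the motif in capitals.
Rab5a, chr17:53478989-53479014, plus strand: ttggagaagaCACGTGacgcaacccc
Rab5a, chr17:53479129-53479154, plus strand: ccggggatgtCACGTGacttcggccc
Rab20, chr8:11478671-11478696, minus strand: gccgggcaccCACGTGgtcgcagggc
Rab21, chr10:115315606-115315631, minus strand: ccaccgcggtCACGTGacgaggggtg

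The motif began 235 and 95 bases before the start of Rab5a, 46 before that of Rab20 and 30 before that of Rab21. The Rab20 site lies within the gene as GENCODE M21 draws it. The interferon-response core (GAAA, any 2 bases, GAAA) was found in 1 member, Rab19, and in 3.46% of all genes, and the NF-kappaB form (GGGA, any base, TTTCC) in 0 members and 0.414% of all genes. CCAAT, in either direction, was found in 18 of the 31 matched members present in every library (58.1%), in 24 of all 48 matched and in 37.5% of all genes, expressed or not. These are letter matches in 1 window per listed start.

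The machinery that acts on all Rabs was present as well. Of all protein-coding genes, 39.1% reached 1 TPM in every library. Of 4 prenylation genes 3 reached 1 TPM in every library, with Rabggtb, the catalytic subunit of the geranylgeranyl transferase, at 10.03 ± 0.85 TPM, Chm, an escort protein, at 4.55 ± 0.19, Rabggta at 3.01 ± 0.53 and Chml at 1.03 ± 0.09. Among recycling factors, Gdi2, which extracts GDP-bound Rabs from membranes, stood at 125.8, 115.2 and 108.7 TPM. Gdi2 was thus at a level between those of Rab7 and Rab8b, while Rabac1 stood at 19.3 ± 3.51 TPM and Rabif at 3.59 ± 0.36. The list median was 3.78 TPM for prenylation, beside 4.07 TPM for the Rabs and 0.12 TPM for protein-coding genes.

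Exchange factors had 28 of 36 genes at 1 TPM and a median of 6.38 ± 0.47 TPM, beside 39.1% and 0.12 TPM for all protein-coding genes. Dennd1a, which activates Rab35, stood at 31.1 ± 6.36, Ric1, a subunit of the Rab6 exchange factor, at 26.2 ± 6.15, and Rin2, which acts on Rab5, at 40.1, 20.4 and 17.9 TPM, while Dennd5b was lowest at 0.04. Of the TBC GAPs 26 of 35 reached 1 TPM, with a median of 4.39 ± 0.29 TPM and Tbc1d13, which acts on Rab35, highest at 51.9 ± 10.8, before Tbc1d2b at 32.4 ± 6.30 and Tbc1d20, which acts on Rab1, at 18.9 ± 3.16. Sgsm1 was listed at 0. Effectors and adaptors had 31 of 47 genes at 1 TPM and a median of 3.61 ± 0.50 TPM. They were led by Rilpl2, which binds phosphorylated Rab8 and Rab10, at 82.9, 50.3 and 48.6 TPM, Vps35 of the retromer at 38.2 ± 4.397 and Ehbp1l1, which binds Rab8, at 31.7 ± 3.15. In all, 6 effectors were listed at 0, among them Rims1 and Sytl5, which bind Rab3 and Rab27. By the chi-square test above, 2 of 4 prenylation genes, 25 of 36 exchange factors, 22 of 33 GAPs and 30 of 38 effectors tested differed between libraries, beside 72.0% of all genes.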

How the data were processed

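Total RNA of 3 libraries of 1 group was quantified by the authors before deposit. Per the file headers, each library has a gene table and a first transcript table with expected counts and TPM, and a second transcript table with estimated counts and TPM, here summed per gene. The assembly is mm10 per the labels, and gene IDs matched GENCODE M21. Which aligner and quantifiers were run is not given in the sources used here. Deposited TPM over all rows was the main value. Rows that name no gene held 0.350%, 0.169% and 0.168% of expected counts and were left out of library sizes. Expected counts were rounded for TMM scaling and the biological coefficient of variation (edgeR 4.0.16), DESeq2 1.42.0 size factors (an alternative) and the chi-square test (scipy 1.17.1, adjusted p under 0.05), run under R 4.3.3 and Python 3.11.15 with numpy 2.4.6, pandas 2.3.3 and matplotlib 3.10.9. The test was tested on simulated data. Coding sequences were aligned with Biopython 1.88.

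Any member may be named. In other lists the 3 highest and the lowest genes are, and of each other cell type the highest marker. A gene that this rule picks among the recycling factors, and the summary of that list, are not reported here. Members with a mean of at least 5 TPM are named if among the 8 most or 4 least variable on CPM, or the 3 most different each way in the second quantification. Members and lists were chosen with earlier results of these data known. Alternatives were the second quantification, rescaled TPM, other thresholds and pseudocounts, CPM, subsets of members and leaving out each library.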

Additional observations from a re-analysis of the deposited data

How the results depend on the processing

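Counts of members stayed within 1.5 times of their value in every alternative run: 29 to 39 of 59 for presence and 29 to 37 for differing between libraries. The median Rab level of 4.07 TPM was 1.80 in the second quantification, 13.7 on rescaled TPM and 23.3 over members at 1 TPM or more. Compartment shares moved by more than their SD as follows. On CPM they were 16.5% for ER and Golgi, 20.3% early endosomal, 12.2% recycling, 19.0% late endosomal, 3.78% lysosome-related, 27.5% exocytic and 0.665% other. Over members with 1 main site they were 16.7%, 24.2%, 13.6%, 28.6%, 0.137% and 16.9% in the same order, without the other group. The 0.137% leaves out Rab32, which acts at several sites. In the second quantification they were 17.1% early endosomal, 19.3% recycling, 26.1% late endosomal, 4.27% lysosome-related and 16.7% exocytic. Over members at 1 TPM or more, lysosome-related Rabs had 4.598% and others 0.956%. Over protein-coding transcripts only, added after seeing the data, they were 16.4% ER and Golgi, 19.4% early endosomal, 15.8% recycling, 26.0% late endosomal, 4.91% lysosome-related and 16.5% exocytic. The late endosomal group led in all of these but CPM. Early endosomal Rabs, above recycling Rabs in every library of the main values, were below them in the second quantification. Leaving out a library moved no group's share by more than its SD. No paired analysis was possible because there is 1 group. Members with few counts could pass or miss 1 TPM by chance at these depths.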
